A study of Rattus norvegicus with 18 samples.

Results

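The first 30 min of thyroid-stimulating hormone (TSH) action were examined in FRTL5 cells, an established line of differentiated rat thyrocytes. The comparison uses 6 of the 18 arrays of the series, the 3 titled FRTL5 30 min and the 3 titled FRTL5 basal. It covers all 8740 probe sets other than the manufacturer's controls. The spread of each probe set was estimated from all 18 arrays. Both groups had spent 5 days in the TSH-free medium 5H and 12 h without serum. The 30 min group then received bovine TSH at 0.1 U/L, and the basal group was untreated. The other 12 arrays hold FRTL5 cells after 17 h of TSH and FRT/TSHR cells, a de-differentiated rat thyroid line, at basal, 30 min and 17 h of TSH at 1 U/L. The cells of these arrays also had 12 h without serum. The name of the FRT/TSHR line includes TSHR, the TSH receptor. Days without TSH are given for the FRTL5 arrays only. Each group had 3 biological replicates on 1-colour Affymetrix arrays. No group named in the labels was handled for 30 min without TSH, so time and handling cannot be told apart from the hormone.

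TSH binds a G protein-coupled receptor on the thyrocyte that raises cyclic AMP, which activates protein kinase A and the transcription factor CREB. Within minutes this class of signal switches on immediate early genes, which need no new protein synthesis, encode mostly transcription factors and feedback inhibitors, and give short-lived mRNAs. Genes of hormone synthesis and of cell division respond to TSH over hours.

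Most of the thyrocyte markers examined read higher on these arrays than in FRT/TSHR. Tg, which encodes thyroglobulin, read 10.32 to 11.64 on the 6 arrays (log2 values made by RMA, a method that corrects background and normalizes arrays), against 3.95 to 4.46 on the 9 FRT/TSHR arrays. Pax8 and Foxe1, transcription factors of thyroid cells, read 9.44 to 10.07 and 8.12 to 9.25, against 8.40 to 8.84 and 6.59 to 7.11 in FRT/TSHR. Slc5a5, the sodium iodide symporter gene, read 6.73 to 7.15 against 5.42 to 5.95. Nkx2-1 overlapped between the lines (6.07 to 7.86 against 5.80 to 6.16). The representative probe set of the receptor gene Tshr did not separate the lines (6.34 to 6.69 against 6.35 to 6.90). Of 43 measured markers of C cells, endothelium, leukocytes and fibroblasts none passed at 30 min, against 0.169% of all genes. Nothing about these markers is read from that count. Their mean level lay between 5.23 and 5.28 at basal and between 5.23 and 5.28 at 30 min. Single members read higher, such as Sparc and Cd48, with basal means of 10.80 and 7.39. Both arrays numbered 1 stood apart before any comparison. Their beta-actin probe sets read 1.22 (basal) and 1.13 (30 min) higher at the 3' than at the 5' end of the transcript, against -0.08 to 0.28 on the other 4 arrays. For Gapdh the same difference was 0.62 and 0.63, against 0.03 to 0.26. The FRTL5 17 h array numbered 1 also read high, at 1.20 for beta-actin and 0.55 for Gapdh. Results are therefore given array by array, and those that change without the FRTL5 arrays numbered 1 are given again at the end of the account of the replicates.

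In the 30 min arrays a small set of immediate early genes was higher than at basal, and no gene was lower by the same test. In limma, with p-values adjusted by the Benjamini-Hochberg method over all probe sets, 21 of 8740 (0.240%) passed at an adjusted p under 0.05, and all 21 were higher. At an unadjusted p under 0.05 there were 241 (2.76%), of which 91 were lower. Of the 21 that passed after adjustment, 18 belonged to 12 named genes, and 3 carried no gene symbol. By role these were the transcription factor genes Egr1, Fos, Junb, Myc, Klf10, Nr4a1, Nr4a2 and Nr4a3, the inhibitor of transcription factors Id1, the MAP kinase phosphatase Dusp1, the mRNA-decay factor Zfp36 and the secreted matricellular protein Ccn1. The changes ran from 0.81 to 3.91 (log2), and 20 of the 21 were at least 2-fold. In all 21 the highest basal array lay below the lowest 30 min array, and each was higher at 30 min within every replicate number. Among all probe sets 3.44% did not overlap upward and 2.91% downward.

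Arrays with the same replicate number were taken as pairs. With the replicate number as a block 40 probe sets passed (0.458%), 36 higher (0.412%) and 4 lower (0.0458%). These held all 21 of the fit without the block. The 19 added ones included further probe sets of Fos, Junb and Klf10. They also brought in 10 more genes, which were Jun, Ier3, Cebpd, Pim3, Ppp1r15a, Acta1, Myl6 and Mat2a upward and Bcl2 and Ppp1r12a downward. Without the FRTL5 arrays numbered 1 the count was 45, with all 21 among them.

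**Figure D1:**
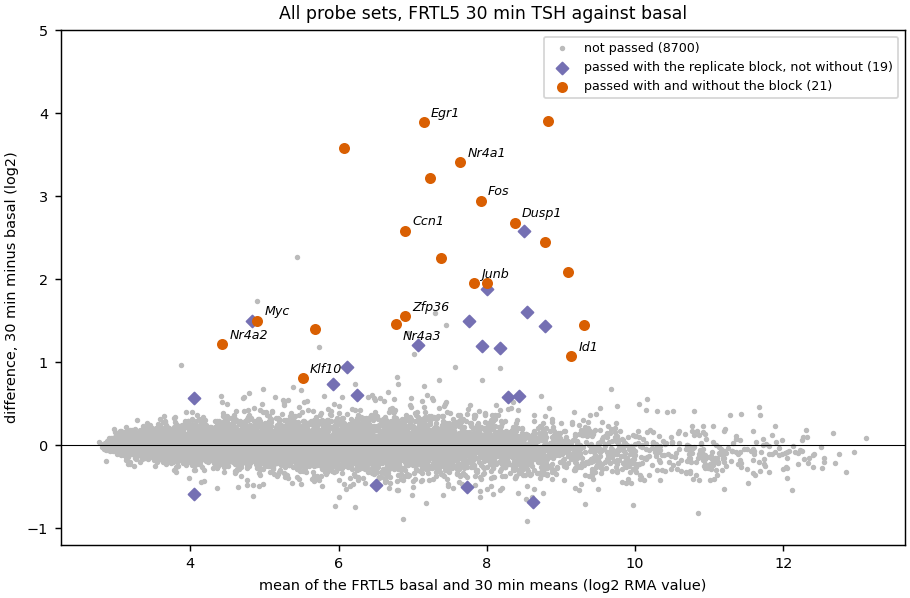
Difference between 30 min TSH and basal (log2) against mean level (log2 RMA value) for all 8740 probe sets in FRTL5, with 1 point per probe set. The 21 orange points passed with and without the replicate block and lie between 0.81 and 3.91, the 19 violet diamonds passed in the fit with the block and not in the fit without it, and no probe set was lower by 2-fold or more.

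The start regions of some of these genes hold letter matches to known response elements. CREB binds the cyclic AMP response element (CRE), with TGACG as its core and TGACGTCA as its full form, and serum response factor binds the CArG box. RefSeq promoters (GRCr8, 250 bases before to 50 after the annotated start) were at hand for 8 of the 12 genes, and 4 are shown because they carry the contrasting arrangements. Egr1 (chr18:26736828-26737127, plus strand) held 2 CArG boxes at -105 and -83, flanked by CRE cores at -135 and -66 (first base of each match, counted from the start). Nr4a1 (chr7:134259888-134260187, plus strand) held 4 CRE cores, at -246, -226, -82 and -53, and no CArG box. Dusp1 (chr10:17184603-17184902, plus strand) held the full CRE at -124 and another core at -172. Zfp36 (chr1:92799059-92799358, minus strand) held a CArG box at -32 and no CRE core. The sequences run 5' to 3', and capitals mark CRE cores on either strand and CArG boxes.
Egr1: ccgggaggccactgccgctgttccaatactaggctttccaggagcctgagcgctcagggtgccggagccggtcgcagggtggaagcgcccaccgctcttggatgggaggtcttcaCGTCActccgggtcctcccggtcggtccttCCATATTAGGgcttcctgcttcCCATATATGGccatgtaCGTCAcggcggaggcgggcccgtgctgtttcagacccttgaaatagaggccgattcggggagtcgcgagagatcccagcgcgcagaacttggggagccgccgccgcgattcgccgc
Nr4a1: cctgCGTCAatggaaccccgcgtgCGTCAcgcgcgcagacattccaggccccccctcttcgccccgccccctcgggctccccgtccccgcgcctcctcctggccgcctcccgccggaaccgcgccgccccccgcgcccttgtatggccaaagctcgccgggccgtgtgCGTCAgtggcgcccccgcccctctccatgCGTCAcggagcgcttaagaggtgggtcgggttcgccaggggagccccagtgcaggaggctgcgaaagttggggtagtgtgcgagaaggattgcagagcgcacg
Dusp1: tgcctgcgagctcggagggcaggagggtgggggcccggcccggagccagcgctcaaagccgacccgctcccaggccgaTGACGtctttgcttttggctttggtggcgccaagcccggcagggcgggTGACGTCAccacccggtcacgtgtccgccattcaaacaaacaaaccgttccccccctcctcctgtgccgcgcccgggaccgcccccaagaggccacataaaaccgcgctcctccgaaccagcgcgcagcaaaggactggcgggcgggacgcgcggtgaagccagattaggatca
Zfp36: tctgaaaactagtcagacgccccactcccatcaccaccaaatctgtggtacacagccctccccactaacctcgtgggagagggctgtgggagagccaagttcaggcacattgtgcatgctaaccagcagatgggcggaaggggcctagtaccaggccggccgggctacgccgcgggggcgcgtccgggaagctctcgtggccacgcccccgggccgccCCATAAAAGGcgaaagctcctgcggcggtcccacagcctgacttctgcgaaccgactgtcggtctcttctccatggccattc

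Nr4a2, Junb and Ccn1 each had 1 CRE core, at -8, -155 and -67, and Id1 had neither element. Counted on both strands, the CRE core stood in 6 of the 8 promoters, against 21.2% of all 33469 promoters of this length and 28.3% of the 4205 promoters of measured genes. The core lies inside the full form, which stood in 1 of the 8 and in 1.83% of all promoters (2.43% of those of measured genes). A CArG box stood in 2 of the 8, against 1.64% of all promoters and 1.74% of those of measured genes. The EGR motif GCGNGGGCG stood in those of Nr4a1 and Zfp36, against 4.98% of all and 8.92% of those of measured genes, and the AP-1 motif TGANTCA in none of the 8, against 7.33% of all and 5.92% of those of measured genes. A match is a stretch of letters, and binding was not measured here.

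Egr1, a zinc finger transcription factor, had the largest change. Its representative probe set (the one with the highest mean over all arrays) read 7.81, 6.65 and 6.13 at basal and 9.94, 11.26 and 11.13 at 30 min for replicates 1 to 3. All 30 min arrays lay above all basal arrays, and replicate 1 was the highest at basal and the lowest at 30 min. The difference was 3.91 ± 0.58 (log2, limma standard error; 15.1-fold; adjusted p = 0.0044), and 4.80 without the arrays numbered 1 (adjusted p = 0.0014). A second Egr1 probe set had basal arrays within 5.12 to 5.33 and 30 min arrays at 7.19, 10.03 and 10.06, a difference of 3.89 ± 0.57 (adjusted p = 0.0044). On the other 2 Egr1 probe sets the values were 2.26 ± 0.56 and 1.09 ± 0.34, short of the threshold (adjusted p = 0.21 and 0.80), and on both the 30 min array of replicate 1 stayed near basal.

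Among the relatives of Egr1 the picture was uneven. Egr2 read 4.01, 3.92 and 4.14 at basal and 4.22, 6.60 and 6.48 at 30 min, so that replicates 2 and 3 were high and replicate 1 was not. Its difference of 1.74 ± 0.41 did not pass (adjusted p = 0.15, and 0.063 with the block). Egr3 and Egr4 had differences of 0.07 ± 0.13 and 0.06 ± 0.16. Klf10, a repressor first known as a TGF-beta inducible early gene, rose on 1 probe set from 5.34, 5.00 and 5.00 to 5.64, 6.09 and 6.04 (0.81 ± 0.15, adjusted p = 0.035). Its representative probe set passed in the blocked fit and not in the unblocked one (0.58 ± 0.13, adjusted p = 0.14, blocked 0.029). Of the 9 measured genes of the Egr and Klf list, which also holds the Egr corepressor Nab1, 8 had higher values, the median difference was 0.12, and 1 passed on its representative probe set. Over all 4736 genes 8 passed in that way (0.169%), 50.7% had higher values and the median was 0.00.

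The 3 Nr4a genes encode orphan nuclear receptors that act without a known hormone, and all 3 rose. Nr4a3 read 5.93, 6.11 and 6.08 at basal and 7.42, 7.46 and 7.64 at 30 min. It had the smallest standard error of the 21 probe sets and the smallest p of all probe sets (1.46 ± 0.10, 2.76-fold, adjusted p = 9.9e-07). Its other 2 probe sets did not pass, at 0.96 ± 0.22 (adjusted p = 0.14, blocked 0.12) and 0.18 ± 0.12. Nr4a1 went from 6.35, 6.0 and 5.47 to 8.35, 9.73 and 9.96, a difference of 3.41 ± 0.33 (10.6-fold, adjusted p = 8.9e-05). Its second probe set rose by 3.22 ± 0.36 (adjusted p = 0.00040). Nr4a2 read 3.90, 3.72 and 3.84 at basal and 5.40, 4.91 and 4.80 at 30 min on the probe set that passed (1.21 ± 0.18, adjusted p = 0.0044). Here replicate 1 was the highest 30 min array. This probe set lay below the lower quartile of mean level over all arrays, and whether it was detected is unknown. The representative Nr4a2 probe set had a difference of 0.55 ± 0.13 that did not pass (adjusted p = 0.21, blocked 0.076).

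AP-1, the dimer of Fos and Jun proteins, was represented by 8 measured genes of its list, of which 6 had higher values with a median difference of 0.59. Over all genes 50.7% had higher values and the median was 0.00. Fos read 7.51, 7.67 and 7.50 at basal and 8.29, 10.55 and 11.17 at 30 min. The basal arrays lay close together, while the 30 min arrays were spread widely, with replicate 1 the lowest. The difference was 2.45 ± 0.46 (5.45-fold, adjusted p = 0.035, blocked 0.0063), and 3.28 without the arrays numbered 1 (adjusted p = 4.1e-07). With only the 9 FRTL5 arrays its adjusted p was 0.64. With only the 6 compared arrays it was 0.9993, and 0.38 with the block. A second Fos probe set passed with 2.94 ± 0.56, and the remaining one, at 7.08, 11.07 and 11.22 on the 30 min arrays, passed in the blocked fit and not in the unblocked fit of all arrays (adjusted p = 0.53, blocked 0.041). Junb rose on 1 probe set from 6.96, 6.83 and 6.76 to 8.13, 9.10 and 9.18 (1.95 ± 0.29, adjusted p = 0.0044). Its representative probe set had 1.49 ± 0.43 (adjusted p = 0.53, blocked 0.0030).

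Jun passed in the blocked fit and not in the unblocked fit of all arrays. Its representative probe set read 7.61, 7.71 and 7.90 at basal and 8.27, 10.16 and 9.61 at 30 min (1.61 ± 0.40, adjusted p = 0.22, blocked 0.034). The groups did not overlap, and replicate 1 again lay between basal and the other 30 min arrays. Other AP-1 subunits did not pass. Jund and Fosl2 had differences of -0.17 ± 0.18 and -0.11 ± 0.21, and Fosl1 0.63 ± 0.42 with its 30 min arrays at 4.83, 4.94 and 5.57 against 4.71, 4.54 and 4.20. Atf3 and Mafk, which dimerize with AP-1 or related proteins, had 0.40 ± 0.15 and 0.55 ± 0.18. None of these 5 passed in either fit.

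**Figure D2:**
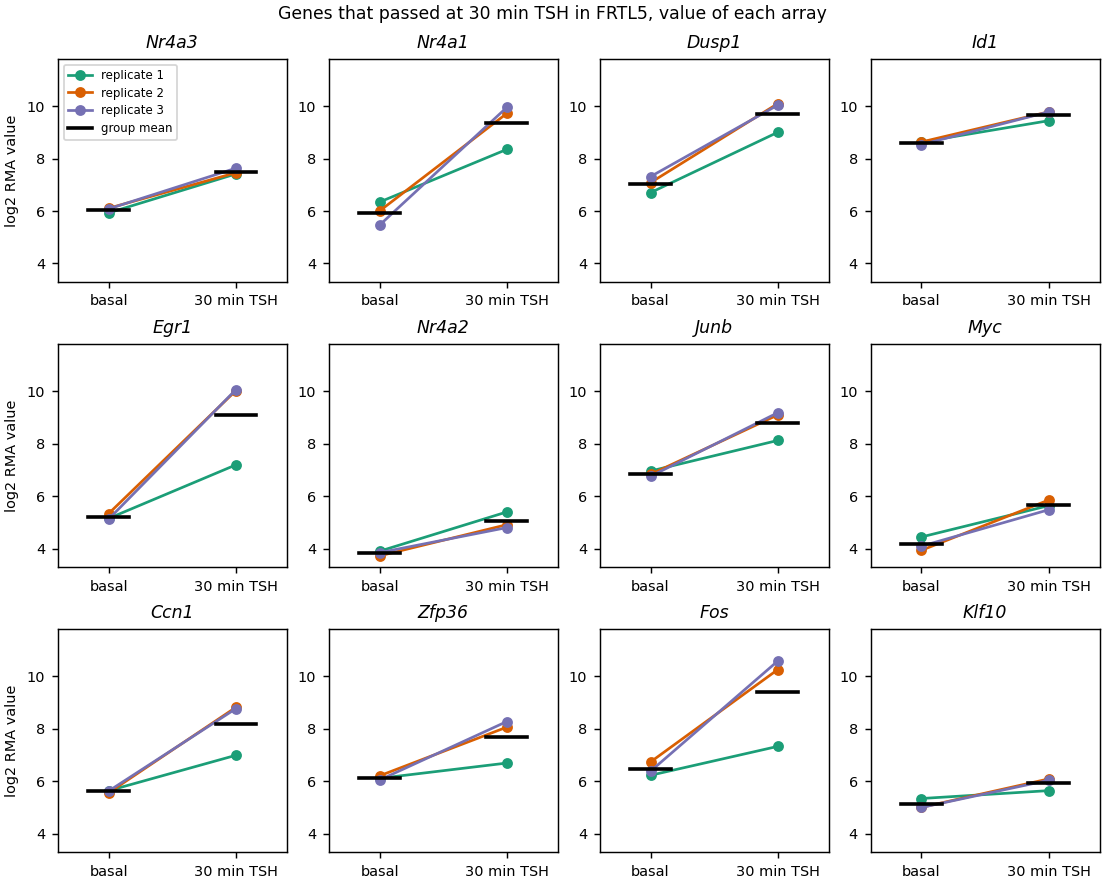
Log2 RMA value of each array at basal and after 30 min of TSH in FRTL5, for the 12 genes that passed (for each, the probe set with the smallest p). Lines join arrays of the same replicate number and black bars are group means. All 12 are higher at 30 min in every replicate, and replicate 1 (green) is the lowest 30 min array in 10 of them, all but Nr4a2 and Myc.

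Myc and Id1 rose among the other early regulators. Myc, a transcription factor of cell growth, read 4.74, 5.10 and 5.11 at basal and 5.90, 6.59 and 6.64 at 30 min (1.39 ± 0.24, adjusted p = 0.017). A second Myc probe set rose by 1.50 ± 0.23 (adjusted p = 0.0049). Id1, which binds helix-loop-helix factors and blocks them, was tight in both groups, at 8.63, 8.64 and 8.54 and then 9.45, 9.79 and 9.79 (1.07 ± 0.15, adjusted p = 0.0028). Its relatives Id2 and Id3 had -0.03 ± 0.37 and 0.47 ± 0.23 and did not pass. Ier3, an early gene linked to cell survival, read 6.32, 6.51 and 6.57 and then 7.21, 7.97 and 7.84. With all arrays it passed in the blocked fit and not in the unblocked one (1.21 ± 0.24, adjusted p = 0.064, blocked 0.00087), as did the kinase gene Pim3 (0.60 ± 0.20, blocked adjusted p = 0.012). For Cebpd, a bZIP transcription factor, 2 probe sets passed in the blocked fit and not in the unblocked one (0.94 ± 0.24 and 0.74 ± 0.18, blocked adjusted p = 0.015 and 0.0042), while the representative one had -0.10 ± 0.15. Of the 21 measured genes of the list of other early regulators 2 rose (Id1 and Myc), 13 had higher values, and the median was 0.17. Over all genes 0.169% passed on representative probe sets, 50.7% had higher values and the median was 0.00.

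Secreted and RNA-binding products formed a list of 24 measured genes, of which Ccn1 alone passed on its representative probe set and 17 had higher values (median 0.10). Over all genes these shares were 0.169% and 50.7%, with a median of 0.00. Ccn1 read 5.64, 5.56 and 5.62 at basal, close together, and 6.99, 8.82 and 8.77 at 30 min. The difference was 2.58 ± 0.45 (6.0-fold, adjusted p = 0.017). Zfp36, which binds AU-rich elements and speeds mRNA decay, rose on 1 probe set from 6.11, 6.21 and 6.05 to 6.69, 8.06 and 8.28 (1.56 ± 0.29, adjusted p = 0.035). The representative Zfp36 probe set had 0.93 ± 0.26 (adjusted p = 0.50, blocked 0.080). Other well-known early genes of this list lay near 0, among them Ptgs2 (-0.18 ± 0.10), Arc (-0.09 ± 0.19), Areg (0.10 ± 0.16) and Odc1 (-0.02 ± 0.33). Their basal means were 5.27, 6.57, 4.23 and 8.58. Whether the low ones, Areg and Ptgs2, were detected is unknown. Edn1, Gadd45a and Nfkbia had 0.48 ± 0.22, 0.68 ± 0.33 and 0.49 ± 0.24 and did not pass.

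Feedback on MAP kinases was led by Dusp1, a phosphatase that inactivates them in the nucleus. Its representative probe set went from 7.71, 8.13 and 8.31 to 9.57, 10.37 and 10.45 (2.08 ± 0.25, 4.24-fold, adjusted p = 0.00059). The other 2 Dusp1 probe sets rose by 2.68 ± 0.31 and 2.26 ± 0.34 (adjusted p = 0.00051 and 0.0044). The gain within replicate numbers was nearly even, at 1.86, 2.24 and 2.15. Dusp5, which acts on nuclear ERK, read 6.85, 6.30 and 7.01 and then 7.19, 8.61 and 8.71 (1.45 ± 0.33, adjusted p = 0.15, blocked 0.063). Dusp6, which acts on cytoplasmic ERK, read 7.64, 6.91 and 6.77 and then 8.20, 7.96 and 7.96 (0.94 ± 0.29, adjusted p = 0.76, blocked 0.11). Neither passed, although their groups did not overlap. Dusp4 and Dusp7 had -0.07 ± 0.12 and -0.14 ± 0.15. The stress gene Ppp1r15a, which restores translation by directing dephosphorylation of eIF2-alpha, read 7.88, 7.57 and 7.34 and then 8.74, 8.80 and 8.76. Its adjusted p was 0.064 without the block and 0.045 with it (1.17 ± 0.24), 0.031 after quantile normalization and 0.027 with only the 9 FRTL5 arrays. With only the 6 compared arrays it was 0.10, and 0.049 with the block. It passed in 0 of the 6 fits without 1 of those arrays.

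The replicates differed in strength. Within replicate numbers the median gain of the 21 probe sets that passed was 1.35 for number 1, 2.31 for number 2 and 2.43 for number 3. The gain of number 1 was the smallest of the 3 for 19 of the 21. For some genes the difference was wide. Fos gained 0.78, 2.88 and 3.68 on its representative probe set, Egr1 2.13, 4.61 and 5.00, and Ccn1 1.35, 3.26 and 3.14. For others it was narrow. Nr4a3 gained 1.49, 1.35 and 1.55 on its representative probe set (0.46, 1.11 and 1.32 on another), Nr4a2 1.50, 1.19 and 0.96, and Id1 0.82, 1.15 and 1.25. A further 16 probe sets were at least 2-fold higher without passing, and in all 16 the 30 min array of replicate 1 was the lowest of the 3. Their median gain was 0.35, 2.14 and 1.77. These are the arrays with the raised 3' to 5' difference of beta-actin, and its part in the smaller gain was not tested.

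Without the FRTL5 arrays numbered 1 several genes passed that had not done so in the unblocked fit of all arrays. That fit keeps only the FRTL5 arrays numbered 2 and 3. It leaves out the 30 min array that was the lowest in all 16 probe sets above, so that further calls are in part built in. Egr2 had a difference of 2.51 (adjusted p = 6.3e-07) and Dusp5 one of 2.00 (0.0028). For 3 of the 4 Jun probe sets the differences were 2.08, 2.56 and 1.86 (adjusted p = 0.023, 0.012 and 0.026). Ier3, at 1.37, passed too (0.0057), as it did after quantile normalization of all arrays (0.029). The remaining Fos probe set had 3.56 (1.5e-06), the representative ones of Junb and Zfp36 had 1.88 (0.015) and 1.30 (0.00074), and a second Nr4a3 probe set had 1.21 (0.00033). Nr1d1 was at 0.74 (0.044) and 1 Cebpd probe set at 0.84 (0.0091). For Ppp1r15a, Pim3, Mat2a, Bcl2 and Ppp1r12a the adjusted p stayed above 0.05 in that fit. Nr4a1 was at 4.11 and Ccn1 at 3.20, while Nr4a3, at 1.45, and Dusp1, at 2.19, lay close to their values with all arrays.

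**Figure D3:**
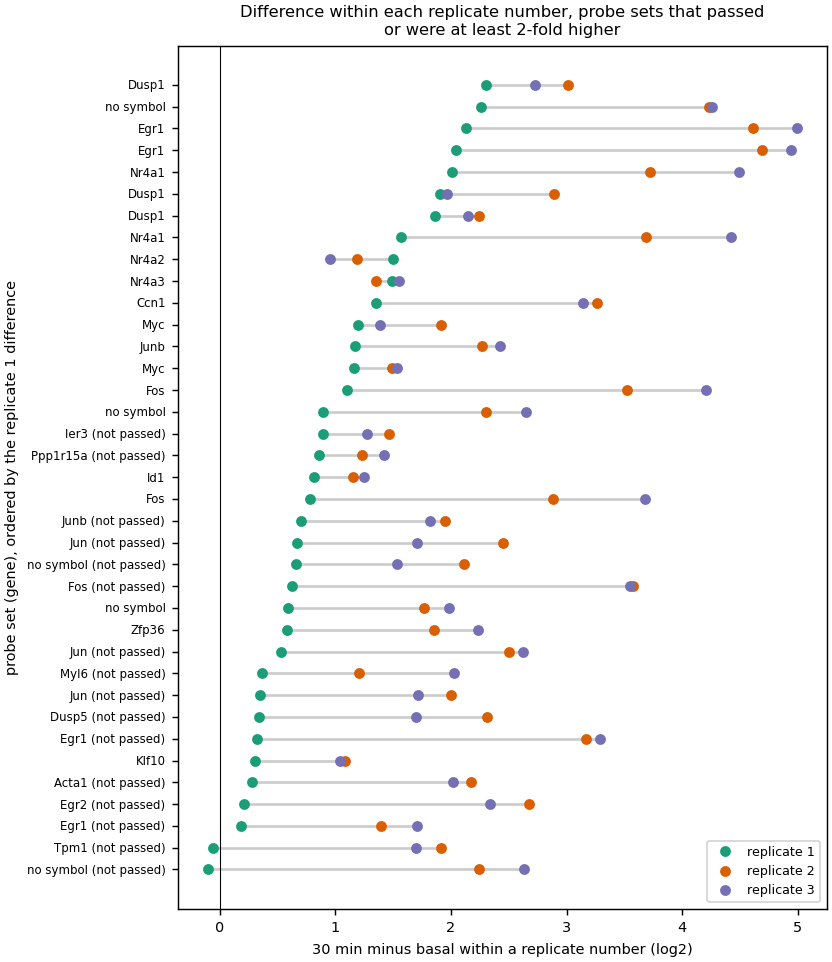
Difference between 30 min and basal within each replicate number (log2, 1 row per probe set) for the 21 probe sets that passed and the 16 that were at least 2-fold higher without passing, ordered by the value of replicate 1. Replicate 1 (green) lies left of the others in most rows, while Nr4a3 and Id1 have their 3 points close together.

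Leaving out single arrays showed which calls rest on few of them. The best probe set of 7 of the 12 genes (Nr4a1, Nr4a2, Nr4a3, Dusp1, Id1, Egr1 and Junb) passed in all 6 fits without 1 of the arrays compared. Fos, Ccn1 and Zfp36 passed only without the 30 min array of replicate 1 and lost their calls in the other 5 fits, with adjusted p up to 0.304 (Fos and Zfp36, without 30 min replicate 2) and 0.163 (Ccn1, without 30 min replicate 3). Klf10 lost its call in 4 fits, those without basal replicate 2 or 3 or 30 min replicate 2 or 3 (adjusted p up to 0.304). Myc lost it without basal replicate 2 (0.0531) and without 30 min replicate 2 (0.0506). Counts of probe sets went from 12 without 30 min replicate 2 and 13 without basal replicate 2 to 44 without 30 min replicate 1. When the model held the 6 compared arrays alone, 2 probe sets passed, and 12 with the replicate block. Of the best probe sets of the 12 genes, 1 passed in that fit and 5 with the block. With only the 9 FRTL5 arrays 7 of the 12 passed.

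No probe set was at least 2-fold lower at 30 min. With the block the named genes that passed downward were Bcl2, an inhibitor of apoptosis, on 1 of its 3 probe sets, and Ppp1r12a, the targeting subunit of myosin phosphatase, on 2 of 3. Bcl2 read 4.20, 4.39 and 4.44 and then 3.64, 3.94 and 3.69 on that probe set (-0.59 ± 0.12, adjusted p = 0.085, blocked 0.014), while its representative probe set had 0.36 ± 0.23. The Ppp1r12a pairs differed by -0.48, -0.48 and -0.48 on one probe set and by -0.40, -0.72 and -0.37 on the other (blocked adjusted p = 0.045 for both). The remaining Ppp1r12a probe set had 0.01 ± 0.24. On representative probe sets the 6 genes with the smallest p among the lower ones were Atrx (-0.44 ± 0.12), Or13c7e (-0.30 ± 0.09), Rfc1 (-0.43 ± 0.14), Setsip (-0.34 ± 0.11), Glod4 (-0.50 ± 0.16) and Cpq (-0.36 ± 0.12). None of these passed in either fit (adjusted p from 0.31 to 0.95).

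Of 33 measured genes of cyclic AMP signalling none passed in limma on representative probe sets, against 0.169% of all genes, so nothing about the list is read from that count. Of the 33, 14 had higher values and the median was -0.01. Gnas, the stimulatory G protein subunit, had -0.08 ± 0.13, the kinase subunits Prkaca and Prkar1a had -0.33 ± 0.25 and 0.17 ± 0.11, and Creb1 had 0.13 ± 0.14. Of 8 measured ERK cascade genes none passed either (median -0.01). The list of cyclic AMP-CREB targets had 26 measured genes, of which 5 rose on their representative probe sets (Nr4a3, Nr4a1, Dusp1, Egr1 and Fos) and 7 on any probe set (with Nr4a2 and Junb). On representative probe sets 16 had higher values, and the median was 0.07. Over all 4736 genes 8 passed on representative probe sets and 12 on any, and 50.7% had higher values. All 7 CREB targets that passed also stood on the lists above. Among the targets that did not pass were Crem (0.14 ± 0.18), Pde4d (-0.04 ± 0.11), Pck1 (-0.16 ± 0.12), Per2 (-0.13 ± 0.15) and Cited2 (-0.59 ± 0.33). Irs2 and Pde4b had 0.32 ± 0.19 and 0.27 ± 0.13 on their representative probe sets, and 0.74 ± 0.20 and 0.68 ± 0.20 on another. One of the other Crem probe sets, with arrays at 4.65, 4.51 and 4.67 and then 5.05, 4.93 and 4.96, had 0.37 ± 0.10 and did not pass (adjusted p = 0.49, blocked 0.17).

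**Figure D4:**
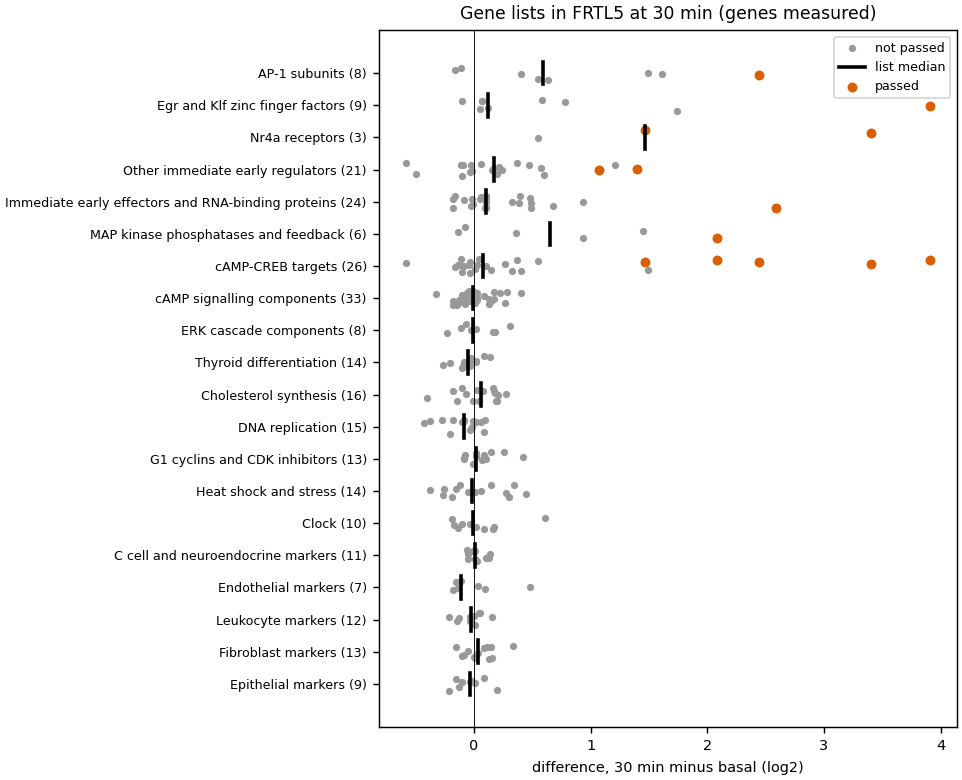
Difference between 30 min TSH and basal (log2) for the measured genes of each list, 1 point per gene on its representative probe set, with the list median as a black bar and the number measured in brackets. Orange points passed, and they lie in the 6 lists of early genes and in the list of cyclic AMP-CREB targets, which shares them. The lists were chosen with earlier results of these data known, so nothing is read from this placement.

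Thyroid function genes did not pass at 30 min, and the intervals show what could have been missed. Slc5a5, the sodium iodide symporter, read 6.73, 7.15 and 7.0 and then 6.79, 6.79 and 7.03, a difference of -0.09 with a 95% interval of -0.48 to 0.29. For Tshr the interval was -0.41 to 0.25 and for Pax8 -0.50 to 0.46. It was wider for Tg (-0.98 to 0.57), Foxe1 (-0.58 to 0.86) and Nkx2-1 (-1.08 to 1.03), on which both arrays numbered 1 were low. Nkx2-1 read 6.07, 7.86 and 7.74 and then 6.19, 7.74 and 7.66. Within replicate numbers these values were close, and the standard error of Nkx2-1 was 0.50 without the block and 0.09 with it. Of the 14 measured genes of the thyroid list 0 passed in either fit and 4 had higher values (median -0.05). Among cholesterol synthesis (16 genes), DNA replication (15) and G1 cyclin and CDK inhibitor genes (13) 0 passed as well, with medians of 0.06, -0.08 and 0.02. The stress list also had none of 14 passing, with Hspb1 at 0.44 ± 0.19 and Dnaja1 at -0.37 ± 0.16. The clock list had none of 10, with Nr1d1, a repressor of the clock, at 7.15, 6.67 and 6.85 and then 7.50, 7.57 and 7.42 (0.61 ± 0.14, adjusted p = 0.15, blocked 0.080). Over all genes 0.169% passed on representative probe sets in the fit without the block. Nothing about the lists of this paragraph is therefore read from counts of 0. At the median standard error of 0.146 a difference of 0.77 was needed to pass in the fit without the block.

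The early rise was set against the same time in FRT/TSHR, where line, medium and TSH dose all differ. The 21 probe sets had been chosen by their effect in FRTL5, so that a smaller effect elsewhere is in part built in. Their median was 0.31 there and 2.08 in FRTL5. Of the 21, 19 had higher values at 30 min in FRT/TSHR too, where the median over all probe sets was 0.03. In limma no probe set passed in FRT/TSHR (208 had an unadjusted p under 0.05). The difference of the effects passed for 3 probe sets of the table (0.0343%), those of Nr4a3 and Nr4a1. Nr4a3 went from 6.03 to 6.11 in FRT/TSHR, and its effect was lower by 1.38 ± 0.14 than in FRTL5 (adjusted p = 0.00030). Nr4a1 went from 5.17 to 5.29, and the difference of effects was -3.29 ± 0.46 (adjusted p = 0.013). With the block 8 probe sets passed (0.0915%), adding Dusp1, Nr4a2, Ier3 and Mat2a. For Egr1 the effects were 3.91 and 1.47 and their difference did not pass (-2.45 ± 0.83, adjusted p = 1.00). Nor did it pass for Fos (-2.11 ± 0.66, adjusted p = 1.00) or Ccn1 (-2.35 ± 0.63, adjusted p = 0.89). Without FRTL5 30 min replicate 1 the count of probe sets was 24. It was 1 without FRTL5 basal replicate 3, FRTL5 30 min replicate 2, FRT/TSHR basal replicate 2 or FRT/TSHR 30 min replicate 3.

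By 17 h of TSH all 21 probe sets were lower than at 30 min, and each passed in that comparison, against 2.35% of all probe sets that passed downward and 1.86% upward. This comparison shares the 30 min arrays with the one against basal, which had chosen the 21. Nr4a3 stood at 6.05 ± 0.08 (mean ± SD, n = 3) and Nr4a1 at 6.22 ± 0.30. Egr1 stood at 6.57 ± 0.13, Fos at 7.60 ± 0.25 and Dusp1 at 7.94 ± 0.33. For these 5 the 17 h means lay within 0.30 of their basal means. Id1 was at 7.93 ± 0.21, below its 3 basal arrays.

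**Figure D5:**
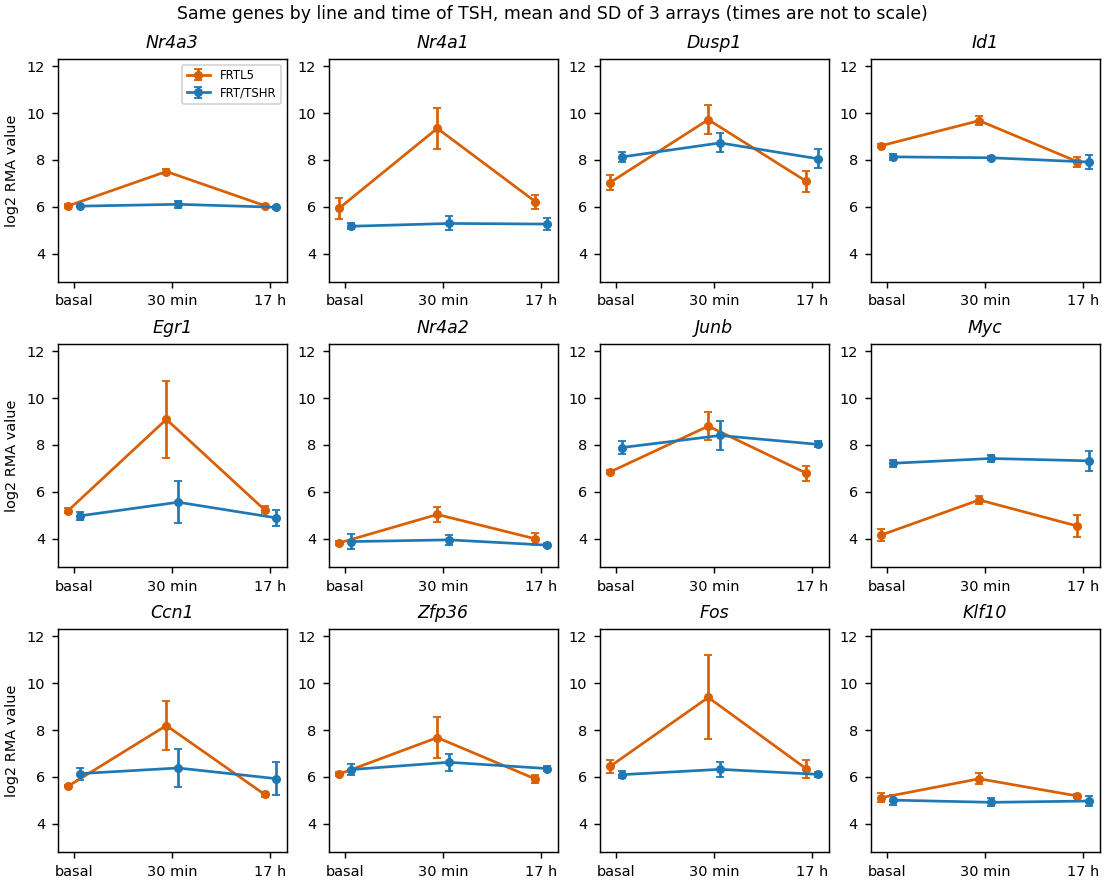
Mean and SD of 3 arrays (log2 RMA value) at basal, 30 min and 17 h of TSH in FRTL5 (orange) and FRT/TSHR (blue) for the 12 genes that passed, each on its probe set with the smallest p. The genes were chosen by their rise in FRTL5, where all 12 are highest at 30 min. At that time in FRT/TSHR Nr4a1 is at 5.29 and Nr4a3 at 6.11. These are the genes for which the difference of effects between the lines passed without the block.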

How the data were processed

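The authors deposited 1 matrix of log2 values for 18 arrays, computed with RMA per the submitters' processing notes. The RMA version and settings are not given in the sources used here. That the scale is log2 follows from the range, 2.61 to 13.58. Scanner files were not used, so signal over background is unknown. Leaving out 59 of 8799 probe sets as controls left 8740 for testing, with no level filter. The platform annotation gave 1 gene symbol to 7006, several to 308 and none to 1426, and 6985 matched GRCr8 by gene number. Where a gene had several probe sets, the brightest on average over all arrays represents it.

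limma 3.58.1 in R 4.3.3 estimated 6 group means from the 18 arrays (12 residual and 3.60 prior degrees of freedom), with two-sided tests and Benjamini-Hochberg adjustment over all probe sets. The script was tested on simulated data. The labels number replicates 1 to 3. Deviations from group means of same-number arrays within a line all correlated above 0.1 (FRTL5 basal with 30 min 0.80, 0.47 and 0.40), so blocked values stand beside results they change. Only number 1 stood out in FRTL5: arrays of different numbers reached 0.39 between basal and 30 min, and 0.63 and 0.61 between 30 min and 17 h, above the same-number values of 0.23 and 0.15 for numbers 2 and 3. The number of arrays limits the precision.

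Named genes were those that passed, the 8 next upward and 6 downward by p, the Fos, Jun, Egr, Nr4a, Dusp and Id families, thyroid genes and up to 3 leading members per list; genes that passed in the blocked fit and not in the unblocked one, and others of the lists, were named after their values were seen. The comparison, members and lists were chosen with earlier results of these data known. No set test was run. Alternatives were the block, leaving out arrays, quantile normalization, a low-value filter, another variance model and smaller fits.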

Additional observations from a re-analysis of the deposited data

Results flagged for a closer look

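The early effect differed between the lines, by the test of the difference itself, for 3 probe sets of 2 genes. The difference of the 30 min effects (FRT/TSHR minus FRTL5, log2) was -1.38 for Nr4a3, and -3.29 and -3.19 for the 2 probe sets of Nr4a1. Cell line, medium and TSH dose differed together and cannot be told apart. No group had the 4 samples needed to test for an outlying array.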

How the results depend on the processing

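Quantile normalization, the filter on low values and the trended, robust variance model gave 23, 20 and 22 probe sets for 30 min against basal, against 21. The count was 40 with the replicate block, 2 with only the 6 arrays compared (12 with the block), 13 with only the 9 FRTL5 arrays, 45 without the FRTL5 arrays numbered 1, and 12 to 44 without 1 array. The difference of effects between lines had 3 probe sets, 8 with the replicate block and 1 to 24 without 1 array. For 17 h against 30 min 368 passed, 916 with the block and 145 to 270 without 1 array (145 and 219 without 30 min replicate 2 or 3, 230 and 200 without 17 h replicate 2 or 3). With the trended model Bcl2 passed downward. The filter on low values left out the Nr4a2 probe set that passed, those described for Egr2 and Acta1, and the Bcl2 one that was lower. None of the named genes that passed turned direction in any alternative. Values near 0 did without 1 array: Foxe1 (-0.14 to 0.42), Nkx2-1 (-0.60 to 0.48), Pax8 (-0.20 to 0.11, and 0.051 with quantile normalization) and Tg (-0.61 to 0.14). The cause of these shifts was not tested beyond the smaller number of arrays. Crossing arrays of different numbers was not tried, and signal over background could not be examined.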

Other observations

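Acta1, Tpm1 and Myl6 were each at least 2-fold higher at 30 min on 1 probe set without passing. They were picked out after their values were seen, and no list of like genes was tested. Acta1, skeletal muscle actin, read 4.15, 4.07 and 4.06 at basal and 4.43, 6.24 and 6.08 at 30 min (1.49 ± 0.31, adjusted p = 0.082, and 0.029 with the replicate block). Tpm1, a tropomyosin that stabilises actin filaments, did so on 1 probe set, which read 4.95, 5.30 and 5.18 and then 4.89, 7.21 and 6.88 (1.18 ± 0.39, adjusted p = 0.96), while its representative probe set had 0.12 ± 0.21. Myl6, a myosin light chain, read 7.65, 7.61 and 6.74 and then 8.01, 8.81 and 8.76 (1.20 ± 0.26, adjusted p = 0.086, blocked 0.023). In all 3 the 30 min array of replicate 1 was the lowest, as for Fos and Egr2. Without the FRTL5 arrays numbered 1 their differences were 2.10, 1.80 and 1.61 and all 3 passed (adjusted p = 1.7e-06, 4.4e-05 and 0.012). That fit leaves out the lowest 30 min array of each, so the larger differences are in part built in.

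In the same fit without the arrays numbered 1, probe sets of 2 signalling genes passed that had not done so with all arrays. Irs2, an adaptor of insulin and IGF-1 receptors, had 0.99 ± 0.17 (adjusted p = 0.015), against 0.74 ± 0.20 (adjusted p = 0.43) with all arrays; its representative probe set had 0.32 ± 0.19 there. Pde4b, a phosphodiesterase that degrades cyclic AMP, had 0.96 ± 0.16 (adjusted p = 0.012), against 0.68 ± 0.20 (adjusted p = 0.55), with 0.27 ± 0.13 on its representative probe set. Hsd17b4, an enzyme of peroxisomal fatty acid oxidation, was lower by that fit (-0.74 ± 0.14, adjusted p = 0.029), against -0.55 ± 0.15 (adjusted p = 0.38). Of the 3 probe sets without a symbol that rose, 1 went from 4.33, 4.38 and 4.15 to 6.59, 8.62 and 8.41 (3.59 ± 0.45, adjusted p = 0.00089). The others were M60921_g_at (1.95 ± 0.30) and M60921_at (1.45 ± 0.25).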
